A study of Mus musculus with 17 samples.

Results

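Ly6C high macrophages and neutrophils, both sorted from injured muscle on day 1, were compared gene by gene. The difference was the value of the Ly6C high column minus that of the neutrophil column. Genes entered with a log2 value of 5 or more in either column, and symbols that contain -ps or are Gm plus digits, mostly names of pseudogenes and predicted genes, were left out. This gave 10531 of the 38087 genes of the table. All cells came from the tibialis anterior, a muscle of the lower leg, of male DBA/2J mice aged 3 months, a wild-type inbred strain with no transgene or deletion named in the labels. The muscle had been injured with cardiotoxin, a snake venom protein that kills muscle fibres. Neutrophils were labelled with 2 samples, and Ly6C high macrophages of day 1 with 3. The series also has Ly6C high macrophages of days 2 and 4 and Ly6C low macrophages of days 2 and 4, with 3 samples each, and these columns are used below to place the neutrophil column. The labels describe no uninjured group and do not say whether animals were pooled. Each column is the authors' mean of a group on the log2 scale, so no value below has an error, no difference has a replicate check, and no test was possible. How far animals of a group differ is not known from them.

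Neutrophils are short-lived granulocytes that leave the blood within hours of injury. They are drawn by chemokines through the receptor CXCR2, and carry preformed granules of antimicrobial proteins and large amounts of the calcium-binding proteins S100A8 and S100A9 in the cytosol. Ly6C high monocytes follow them through the chemokine receptor CCR2 and become inflammatory macrophages, which take up dead fibres and cells, present antigen and later give way to Ly6C low macrophages. Both cell types come from bone marrow progenitors and share many myeloid genes.

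At least a 2-fold difference was taken as the mark of a gene higher or lower in 1 of the cell types. By it, 1098 genes were higher in Ly6C high macrophages (10.4% of those compared) and 1792 were lower (17.0%), while 7641 lay less than 2-fold apart. The shares of 10.4% and 17.0% are those to set beside the counts of each gene list below. Of the 2890 genes past 2-fold, 38.0% were higher in Ly6C high macrophages, and 50.8% were when the symbols left out by the rule were kept. At 16-fold, 51 genes were higher and 160 lower. The median difference over all genes compared was -0.01. There were 411 genes that reached the minimum in Ly6C high macrophages alone and 840 that reached it in neutrophils alone, and such genes enter because they are high on one side. The lowest value just inside the minimum was 5.0002 and the highest just outside it was 4.99993.

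**Figure D1:**
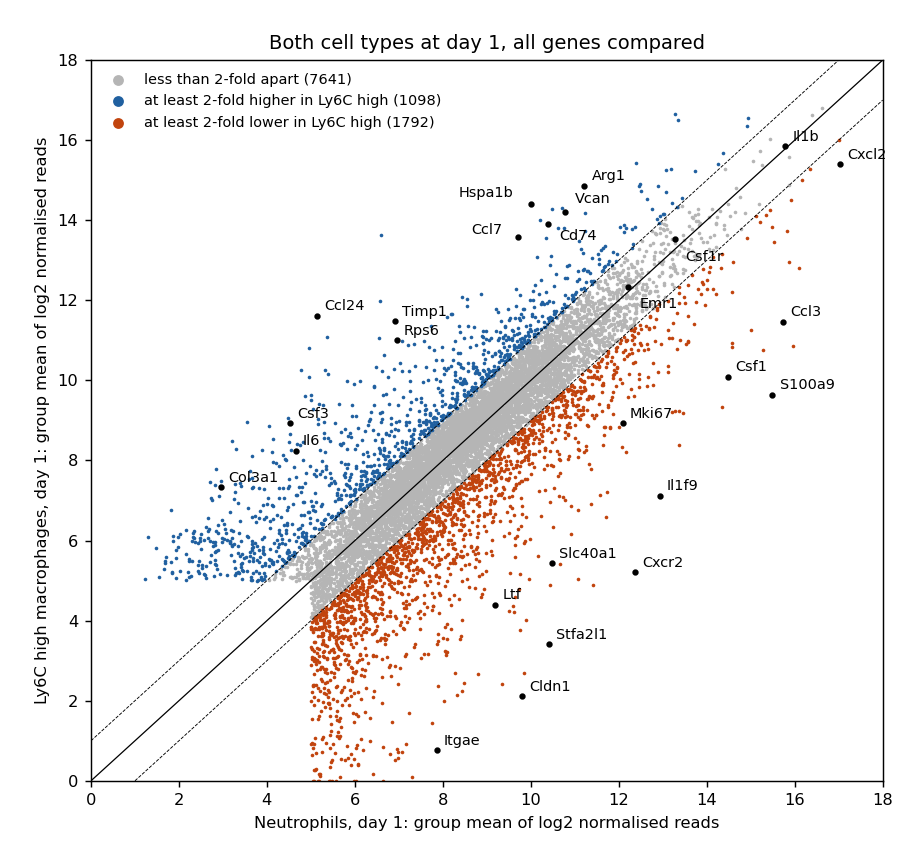
Group mean of log2 normalised reads in neutrophils (horizontal axis) and in Ly6C high macrophages (vertical axis) on day 1, with each point 1 of 10531 genes and dashed lines at 2-fold. The 1098 blue genes were at least 2-fold higher in Ly6C high macrophages and the 1792 red genes at least 2-fold lower, and the named genes are described in the text.

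The genes that define the sorts gave a mixed picture. Cxcr2, the receptor for neutrophil-attracting chemokines, was at 12.37 in neutrophils and 5.21 in Ly6C high macrophages, 143-fold lower. S100a9 was at 15.49 against 9.64. Ly6c2, which encodes the Ly6C antigen, was at 6.70 in neutrophils and 9.65 in Ly6C high macrophages, and Ly6c1, a close paralog whose reads may be shared with it, at 3.67 and 7.31. These 4 genes followed the labels. The neutrophil column also held macrophage genes at the level of the macrophage column. Csf1r, the receptor for macrophage colony-stimulating factor, was at 13.27 and 13.52, and Emr1 (now Adgre1, the F4/80 antigen) at 12.22 and 12.34. Of 21 genes of macrophage identity and maturation compared, 3 were higher in Ly6C high macrophages, 9 were lower and 9 were neither, with a median of -0.35. Ly6g, the antigen by which mouse neutrophils are usually known, was at 3.48 in the neutrophil column, below the minimum, and was listed at 0 in the other 5 columns. In bulk samples, fewer cells of a type and less RNA per cell cannot be told apart. What part macrophage RNA in the neutrophil column has in the differences below was not tested.

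Promoter sequences are shown for 6 genes on which the comparison turns, 3 of neutrophil content and 3 of the interferon response. They are the stretch just before the annotated transcription start, read 5′ to 3′ on the strand of the gene, from RefSeq on GRCm38.p6, a genome of another mouse strain than DBA/2J. In the first set, capitals mark the letters TTGCNNAA, found on either strand, a pattern that the C/EBP factors of myeloid cells bind. S100a9 (chr3:90695722-90695967, minus strand) encodes a subunit of calprotectin. Ltf (chr9:111019142-111019291, plus strand) encodes lactoferrin, and Lcn2 (chr2:32387740-32387965, minus strand) encodes lipocalin 2, both iron-withholding granule proteins.
S100a9: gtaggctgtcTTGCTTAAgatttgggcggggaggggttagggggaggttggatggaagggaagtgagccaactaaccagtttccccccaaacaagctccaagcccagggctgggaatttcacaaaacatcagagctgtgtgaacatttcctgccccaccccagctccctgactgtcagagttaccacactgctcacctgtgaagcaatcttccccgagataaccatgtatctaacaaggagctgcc
Ltf: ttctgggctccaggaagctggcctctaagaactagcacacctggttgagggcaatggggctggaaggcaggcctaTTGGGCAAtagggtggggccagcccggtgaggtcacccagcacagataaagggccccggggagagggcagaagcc
Lcn2: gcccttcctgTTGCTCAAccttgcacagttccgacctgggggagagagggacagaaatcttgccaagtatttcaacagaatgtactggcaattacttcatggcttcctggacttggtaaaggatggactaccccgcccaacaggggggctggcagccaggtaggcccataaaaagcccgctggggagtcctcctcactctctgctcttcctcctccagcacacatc
Of 32851 promoters of this table, 9.56% hold the pattern in their 250 bases before the start. Among the 7641 genes compared that had a promoter entry, 7.43% do. The pattern stood in 7.85% of 713 promoters of genes higher in Ly6C high macrophages and in 7.86% of 1260 promoters of genes lower there, so its share did not separate the directions. It stood in 3 of the 17 listed cytosolic and stefin genes with a promoter entry and in 4 of 17 granule genes, so the promoters shown are not typical of their lists.

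In the second set, capitals mark GAAA, any 2 bases and GAAA again, on either strand, the core of the interferon-stimulated response element. Ifit1 (chr19:34640739-34640888, plus strand) and Ifit3 (chr19:34583363-34583528, plus strand) encode antiviral RNA-binding proteins, and Rsad2 (chr12:26456453-26456602, minus strand) encodes viperin.
Ifit1: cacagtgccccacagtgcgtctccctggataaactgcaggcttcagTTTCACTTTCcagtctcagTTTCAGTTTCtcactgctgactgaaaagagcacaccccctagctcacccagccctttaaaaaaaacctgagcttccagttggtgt
Ifit3: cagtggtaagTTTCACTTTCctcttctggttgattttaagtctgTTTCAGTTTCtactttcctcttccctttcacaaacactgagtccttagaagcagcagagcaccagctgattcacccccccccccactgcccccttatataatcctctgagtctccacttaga
Rsad2: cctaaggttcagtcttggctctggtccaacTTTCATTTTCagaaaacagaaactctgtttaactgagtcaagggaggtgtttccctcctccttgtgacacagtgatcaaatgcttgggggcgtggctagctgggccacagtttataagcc
Of all promoters, 2.98% hold this pattern, as do 2.77% of those of the genes compared. Among the interferon response genes listed for this work, 17 of the 31 with a promoter entry hold it, or 54.8%. Of the 16 of them that were compared, 8 were at least 2-fold lower in Ly6C high macrophages and 1 was higher, with a median of -1.03. Of the 12 compared genes of the list without it, 8 were lower and none was higher, with a median of -1.58. The letters therefore did not sort the interferon genes by their difference. A match is a description of the sequence and not a bound site.

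Neutrophil receptors and cytosolic genes were lower in Ly6C high macrophages in most but not all members, and granule genes in 7 of 14. Of 20 chemotactic and surface receptors listed, 19 were compared, and 14 were lower and 2 higher, with a median of -2.13. Mrgpra2a and Mrgpra2b, a pair of Mas-related receptors next to each other on chromosome 7, were at 11.42 and 10.43 in neutrophils and at 4.88 and 4.89 in Ly6C high macrophages. Niacr1 (now Hcar2), a receptor for niacin and ketone bodies, was at 13.47 against 9.18. Il1r2, a decoy receptor that binds interleukin-1 without signalling, was at 13.27 against 9.23. Cxcr1, Mrgpra2a and Mrgpra2b passed the minimum through neutrophils alone, with Cxcr1 at 5.11 against 0.28. Ltb4r1 and Cd177 lay in the other direction. Cd177, a surface protein known from neutrophils, was at 5.98 in neutrophils and 9.92 in Ly6C high macrophages, and Ltb4r1, the receptor for leukotriene B4, at 6.90 and 10.29. Both genes were chosen after their values were seen. Cd177 was also at 10.23 in Ly6C high macrophages of day 2 and at 8.50 in those of day 4, against 7.39 and 4.88 in Ly6C low macrophages.

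Of 20 granule genes listed, 14 were compared, of which 7 were lower in Ly6C high macrophages, 3 higher and 4 neither, with a median of -0.85. Of the 14, 5 reached the minimum in 1 column alone, among them Ltf and Mmp25 in neutrophils and Prtn3 in Ly6C high macrophages. Over all 20 granule genes in the table the median was -0.34. Ltf was at 9.19 in neutrophils and 4.40 in Ly6C high macrophages, and Lcn2 at 10.67 and 7.69. Mmp9, gelatinase B, was at 12.03 and 10.02, and Mmp25, a membrane-bound protease of neutrophils, at 7.92 and 4.18. Mmp8, neutrophil collagenase, was at 9.30 and 9.21. Lyz2, lysozyme of myeloid cells, was at 16.61 and 16.81, the same to within 0.19. The 3 higher genes were Arg1 (11.22 and 14.86), which splits arginine, Chi3l3 (now Chil3, 7.24 and 10.24), a chitinase-like protein, and Prtn3 (3.83 and 5.76), proteinase 3 of primary granules. Arg1 and Chi3l3 are also known as markers of macrophages.

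Of 18 cytosolic and stefin genes compared, 12 were lower in Ly6C high macrophages and none was higher, with a median of -3.25. Of the 18, 5 reached the minimum in 1 column alone. Stefins are inhibitors of cysteine proteases, and 3 of them lie together on chromosome 16, between base 36156811 and base 36408457 (GRCm38). Stfa2l1 was at 10.41 in neutrophils and 3.41 in Ly6C high macrophages, 129-fold lower. Stfa1 was at 6.97 and 0.79, and Stfa2 at 6.98 and 0.72, so both reached the minimum in neutrophils alone. G0s2, an inhibitor of fat breakdown, was at 11.70 and 6.59, and Asprv1, an aspartic protease, at 9.59 and 4.37. S100a8 and S100a9 are neighbours on chromosome 3 (90668978 to 90670035 and 90692632 to 90695721). S100a11 and Ifitm2 stood out from the list, at 11.12 and 11.25 and at 11.67 and 11.93. Neither the S100 family nor the interferon-induced transmembrane family was therefore uniformly higher in neutrophils.

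Of the 12 genes with the most negative differences among well-expressed genes, 11 were protein-coding, with differences from -7.69 to -5.99. Besides Cxcr2, Stfa2l1 and Mrgpra2a, they held genes outside the neutrophil lists above. Cldn1, the tight junction protein claudin-1, was at 9.80 in neutrophils and 2.11 in Ly6C high macrophages, 207-fold lower. Sycp2, a protein of the synaptonemal complex, was at 9.85 and 2.70. Il28ra (now Ifnlr1), the specific chain of the receptor for interferon lambda, was at 8.48 and 2.43, and Olfm4, a glycoprotein of a subset of neutrophil granules, at 9.75 and 3.75. The others were 2010002M12Rik (now Ifit1bl2, 9.35 and 2.42), Kntc1 (8.44 and 2.24), Tal2 (8.33 and 2.15) and Mgam (8.81 and 2.66). The only one that is not protein-coding was AC123702.1 (now Mirt1), a long noncoding RNA of chromosome 19, at 11.08 and 5.03. Among protein-coding genes a little further in, chosen after their values were seen, were 2 enzymes of small mediators. Irg1 (now Acod1), which makes itaconate, was at 15.97 in neutrophils and 10.86 in Ly6C high macrophages. Hdc, which makes histamine, was at 13.36 and 8.38.

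Genes of classical monocytes were higher in Ly6C high macrophages. Of 17 compared, 13 were higher, 1 was lower and 3 were neither, with a median of 2.95. Ms4a4c, a membrane protein of monocytes, was at 5.83 in neutrophils and 9.98 in Ly6C high macrophages, the widest gap of the list. Fn1, fibronectin, was at 13.29 and 16.64. Vcan, the proteoglycan versican, was at 10.77 and 14.21. Lgals3, galectin-3, was at 13.88 and 13.56. Transcription factors of monocytes and macrophages were split, with 7 of 24 higher and 6 lower. Irf4 (5.85 and 8.60), Id3 (6.97 and 9.38) and Klf4 (9.49 and 11.50) were higher in Ly6C high macrophages, and Bhlhe41 (8.54 and 5.04) and Egr2 (11.64 and 9.89) were lower. Among 11 factors of granulopoiesis, 3 were lower, namely Mxd1 (15.54 and 13.45), Klf2 (11.93 and 9.86) and Bcl6 (11.08 and 9.40). The factor Cebpe, needed for granule formation, was higher in Ly6C high macrophages, at 5.53 and 7.49. Sfpi1 (now Spi1), which encodes PU.1, was at 11.79 and 12.17.

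Genes of mature, lipid-handling and resident macrophages did not follow the monocyte genes. Of 21 lipid-associated genes, 7 were lower in Ly6C high macrophages and 3 higher, with a median of -0.31. Lpl, lipoprotein lipase, was at 11.81 in neutrophils and 8.84 in Ly6C high macrophages. Cd9, a tetraspanin, was at 13.57 and 10.97, and Atp6v0d2, a subunit of the proton pump, at 8.23 and 5.55. In the identity list, Cx3cr1, the fractalkine receptor, was at 8.99 and 6.66, and Lyve1, known from resident macrophages, at 5.46 and 3.26. Higher in Ly6C high macrophages were Cd163 (9.41 and 11.32), the haemoglobin scavenger receptor, Fcgr1 (9.79 and 11.65), the high-affinity IgG receptor, and Mrc1. Of 16 genes of apoptotic cell uptake, 6 were lower and none was higher, with a median of -0.47. They included Cd300lf (11.75 and 9.38), Axl (8.20 and 6.78) and Gas6 (10.72 and 9.38), receptors or bridges for phosphatidylserine. Mertk was at 8.95 and 8.60. The neutrophil column was therefore at or above the Ly6C high column of day 1 for much of the machinery known from macrophages. Against the mean of the 4 later macrophage columns it was not, since the medians of these lists, macrophages minus neutrophils, were then 0.85 for identity, 0.84 for lipid handling and 0.40 for apoptotic cell uptake.

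Chemokine genes were parted by gene and not by class. Of 10 CC chemokines compared of 16 listed, 8 were higher in Ly6C high macrophages and 2 lower. The monocyte-attracting genes Ccl2, Ccl7, Ccl12 and Ccl8 lie in a row on chromosome 11 from base 82035571 to base 82116799 (GRCm38). Ccl2 was at 10.75 in neutrophils and 13.80 in Ly6C high macrophages, Ccl12 at 5.54 and 8.95, and Ccl7 and Ccl8 were higher by 3.87 and 4.24. A second row on the same chromosome runs from base 83572919 to base 83664683 and was divided. The genes at its start, Ccl9 (12.47 and 14.84) and Ccl6 (12.38 and 15.44), were higher in Ly6C high macrophages. The genes at its end, Ccl3 (15.74 and 11.46) and Ccl4 (14.58 and 10.93) were lower there. Ccl24, a ligand of CCR3, is on chromosome 5 and had the widest gap of the list, at 5.14 and 11.61, 88.6-fold higher. Differences of both signs thus stood within 1 row of neighbouring genes.

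The CXC genes were also divided. Of 10 compared, 6 were higher in Ly6C high macrophages and 2 lower. Cxcl5 (6.75 and 10.09), Ppbp (10.63 and 13.81), Pf4 (10.20 and 14.01), Cxcl3 (12.75 and 14.28) and Cxcl1 (12.87 and 14.03) lie in a cluster on chromosome 5 from base 90759360 to base 90893115, and all 5 were higher. Cxcl2, further on at bases 90903871 to 90905938, was lower, at 17.03 in neutrophils and 15.40 in Ly6C high macrophages. It was at 13.22 to 14.51 in the later macrophage columns. Cxcl1, Cxcl2, Cxcl3, Cxcl5 and Ppbp encode ligands of CXCR2. Ppbp and Pf4 are also platelet genes, and no other of the 13 red cell and platelet genes listed was over 10 in either column. The genes of haemoglobin were low but higher in Ly6C high macrophages, with Hba-a1 at 1.98 and 5.84 and Hbb-b1 at 2.29 and 5.99. What part platelet or red cell RNA has in Ppbp and Pf4 was not tested. Cxcl12, known from stromal cells, was at 2.97 and 7.49, and fibroblast genes moved with it, as given below. Cxcl10, an interferon-induced chemokine, was lower, at 8.04 and 6.34.

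Of 11 chemokine receptors compared, 4 were higher in Ly6C high macrophages and 5 lower. Ccr2, the monocyte receptor for Ccl2, was at 9.65 in neutrophils and 11.85 in Ly6C high macrophages. Cmklr1, the chemerin receptor, was at 8.92 and 11.09, and Cxcr7 (now Ackr3), a scavenger of Cxcl12, at 4.98 and 7.85. Cxcr4, the signalling receptor for Cxcl12, was at 12.87 and 11.81. Ccr1, a receptor for Ccl3, was at 12.31 and 12.05. It was thus less than 2-fold apart while Ccl3 was not.

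The interleukin-1 family was lower in Ly6C high macrophages in most members, but not Il1b. Of 20 genes of the family and the inflammasome compared, 11 were lower and 2 higher, with a median of -1.30. Il1b itself was at 15.78 in neutrophils and 15.85 in Ly6C high macrophages. Il1f9 (now Il36g), interleukin-36 gamma, was at 12.93 and 7.12, 56.0-fold lower. Il18r1 and Il18rap, the chains of the interleukin-18 receptor, were at 8.02 and 11.07 in neutrophils and at 1.99 and 8.09 in Ly6C high macrophages. Nlrp1b, a sensor of the inflammasome, was at 7.88 and 3.48, while Mefv, which encodes pyrin, was at 12.10 and 12.38. Il1a (14.21 and 12.15) and Il1rn (16.16 and 15.00), the receptor antagonist, were lower as well, and both were chosen after their values were seen. Il1r1, the signalling receptor, was higher in Ly6C high macrophages, at 5.25 and 7.98. The decoy receptor and the signalling receptor therefore differed in opposite directions.

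Tumour necrosis factor and other cytokines were similarly divided. Of 14 genes of the TNF superfamily, 4 were lower in Ly6C high macrophages and 2 higher. Tnf was at 14.58 in neutrophils and 12.21 in Ly6C high macrophages, and Ltb, lymphotoxin beta, at 9.99 and 6.04. The TNF receptors Tnfrsf1a (11.32 and 10.66) and Tnfrsf1b (14.52 and 14.09) differed by less than 2-fold. Of 21 cytokine genes of other families, 8 were higher and 6 lower, with a median of 0.08. Of the 21, 4 reached the minimum in 1 column alone, among them Csf3 and Il6 in Ly6C high macrophages and Il16 in neutrophils. Csf1, the growth factor of macrophages, was lower, at 14.49 and 10.09. Csf3, the growth factor of neutrophils, was higher in Ly6C high macrophages, at 4.53 and 8.93. For Csf1 and Csf3, each cell type had the higher level of the growth factor known for the other. Csf3 entered the comparison only because it is high in Ly6C high macrophages. Il6 was at 4.65 and 8.24 and Lif at 6.63 and 10.24. Il16 was lower, at 8.89 and 4.67.

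**Figure D2:**
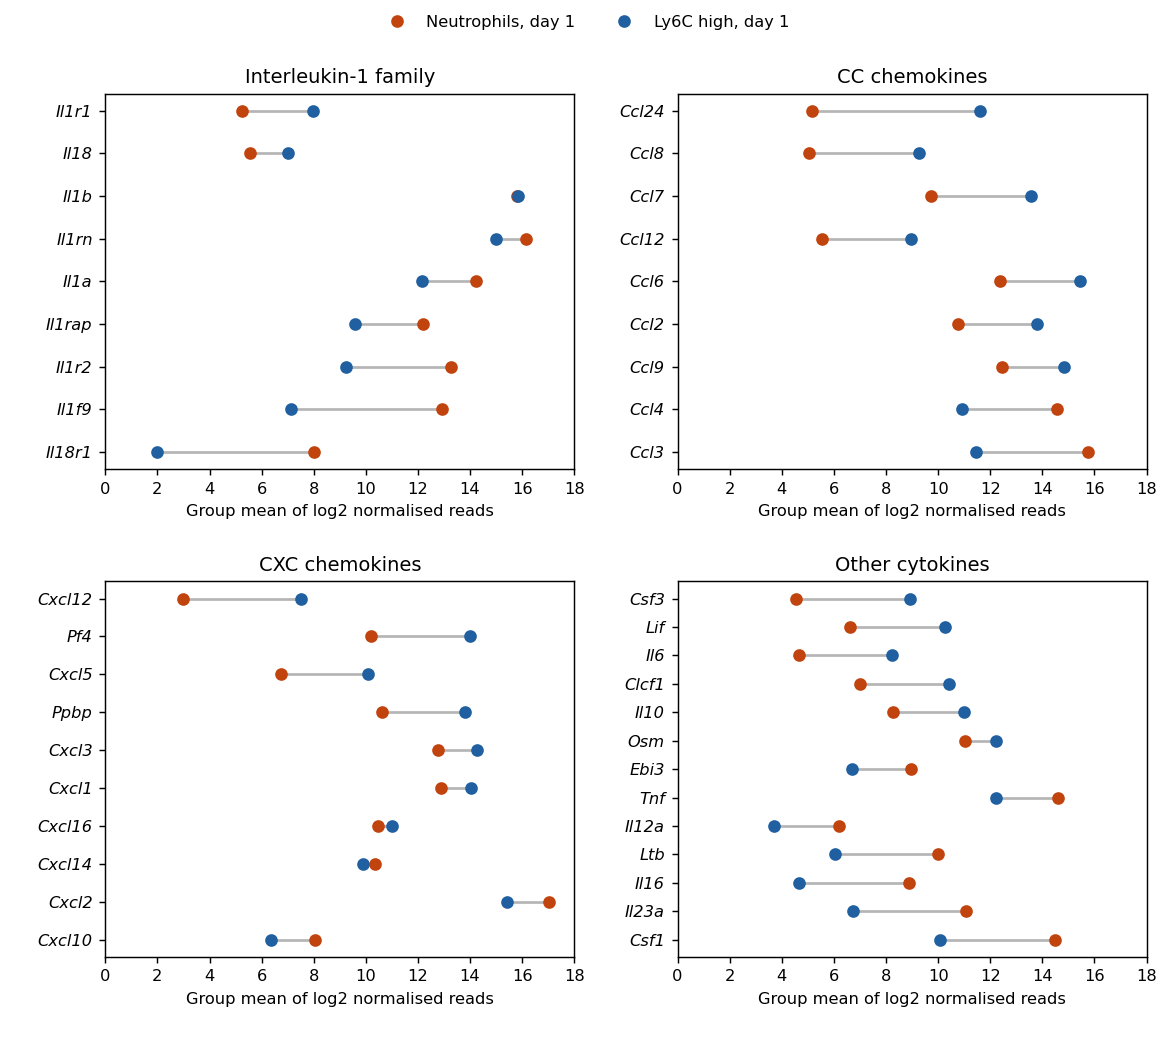
Group mean of log2 normalised reads in neutrophils (red) and Ly6C high macrophages (blue) of day 1 for cytokine, chemokine and receptor genes, with a grey line joining the 2 values of a gene. The genes drawn were chosen after their values were seen. Il1b lies at 15.78 and 15.85, while Ccl3 and Ccl24 lie far apart in opposite directions.

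Genes that restrain inflammatory signalling were found on both sides. Of 20 compared, 5 were higher in Ly6C high macrophages and 5 lower. Nfkbiz (15.86 and 12.96), an atypical inhibitor of NF-kappaB, and Tnfaip3 (15.82 and 13.72), which encodes A20, were lower. The suppressors of cytokine signalling were higher in Ly6C high macrophages, with Socs1 at 5.43 and 8.49, Socs3 at 11.64 and 13.32 and Socs2 at 3.34 and 5.22. Immediate early genes showed the same division. Of 22 compared, 9 were lower, including Egr1 (12.65 and 10.08) and Egr3 (8.12 and 5.66), and 5 were higher, including Fosl1 (5.77 and 8.79) and Fosb (10.10 and 12.37). Junb was at 13.05 and 13.28.

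Antigen presentation by MHC class II was higher in Ly6C high macrophages, while MHC class I was not. Among the 16 class II and costimulation genes that could be compared, 10 were higher, 3 lower and the median was 1.99. Cd74, the invariant chain, was at 10.40 in neutrophils and 13.92 in Ly6C high macrophages. H2-Aa (8.48 and 11.06), H2-Ab1 (7.69 and 10.83) and H2-Eb1 (8.37 and 11.36) encode the class II chains. The peptide loading genes H2-DMa (7.25 and 9.98), H2-DMb1 (6.43 and 7.89) and H2-DMb2 (6.35 and 7.87) were higher too. Ciita, the regulator of class II genes, passed through Ly6C high macrophages alone, at 2.82 and 5.96. Of the costimulatory genes, Cd86 (8.86 and 12.16) and Cd40 (5.82 and 8.27) were higher, and Cd80 was at 10.46 and 10.81. Cd274, which encodes PD-L1, was lower in Ly6C high macrophages, at 13.33 and 10.79, as was Icosl, at 10.77 and 8.57. H2-Ob, an inhibitor of peptide loading, was at 5.52 and 3.60. The class II genes and the inhibitory ligand of T cells thus differed in opposite directions. Of 17 genes of the class I pathway, 2 were higher, none was lower and the median was -0.19. H2-D1 was at 13.37 and 13.23. DBA/2J carries another MHC haplotype than the reference strain, and what this does to the counts was not tested.

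Dendritic cell markers were partly higher with class II. Of 16 compared, 10 were higher in Ly6C high macrophages and 2 lower, but 10 of the 16 reached the minimum in 1 column alone. Over all 18 genes of the list in the table the median was 1.07. The defining genes were low, with Flt3 at 3.66 in neutrophils and 5.82 in Ly6C high macrophages, Zbtb46 at 4.62 and 5.64 and Xcr1 at 3.15 and 5.93. Ccr7 was at 4.48 and 7.30 and Cd209a at 4.51 and 7.55. The summed level of the list was 12.6 on the log2 scale in neutrophils and 12.5 in Ly6C high macrophages, set mostly by genes that macrophages share. What part dendritic cells have in the class II difference was not tested. Itgae, the integrin CD103, went strongly the other way, at 7.86 in neutrophils and 0.76 in Ly6C high macrophages, and at 3.49 to 4.00 in the later macrophage columns.

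Interferon response genes were lower in Ly6C high macrophages for many members. Of 37 compared, 19 were lower, 2 higher and 16 neither, with a median of -1.03. The share lower was 51.4%, against 17.0% of all genes compared. Ifit2 was at 7.48 in neutrophils and 4.06 in Ly6C high macrophages, and Ifit3 at 7.58 and 4.44. Cmpk2 (7.92 and 5.08) and Oasl2 (11.06 and 8.28) were further members. Irf9, a subunit of the factor that binds the response element, was at 9.67 and 9.74, and Bst2, tetherin, at 8.86 and 9.32. In the macrophages of days 2 and 4, Ifit2 was at 5.65 to 9.27 and Ifit3 at 5.68 to 8.63. For these genes the neutrophil column lay within the range of the later macrophages, and the day 1 Ly6C high column below it. Ifit1 (8.24), Rsad2 (10.84), Oasl2 and Cmpk2 were higher in neutrophils than in any later column, by less than 2-fold. Of the 37, neutrophils were above all 4 later columns in 11, within their range in 18 and below it in 8. The day 1 Ly6C high column was within that range in 26 and below it in 11. Against the mean of the 4 later columns, the median of the list became -0.39.

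Genes of the cell cycle were lower in Ly6C high macrophages throughout the lists. Of 27 genes of DNA replication compared, 20 were lower (74.1%, against 17.0% of all genes compared) and none was higher, with a median of -1.33. Of the 27, 8 reached the minimum in neutrophils alone. Over all 28 replication genes in the table the median was -1.31. Rrm2, a subunit of ribonucleotide reductase, was at 7.74 in neutrophils and 4.26 in Ly6C high macrophages. Mcm6, a subunit of the replicative helicase, was at 8.51 and 6.16, and Cdc45 at 6.26 and 3.71. Cdt1, which loads the helicase, was at 8.95 and 9.43. All 25 genes of mitosis compared were lower, with a median of -3.14, but 21 of them reached the minimum in neutrophils alone. Plk1, a mitotic kinase, was at 5.66 and 1.13, Cenpf at 5.51 and 0.91, and Hmmr at 6.02 and 0.83. Over all 28 mitosis genes in the table the median was -3.11. None of the 25 was 2-fold above all 5 macrophage columns in neutrophils. Against the mean of the 4 later columns, the median of the mitosis list was 0.075 and that of replication was -0.11. The neutrophil column was thus near the mean of the later macrophages, and the day 1 Ly6C high column below both.

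Regulators of apoptosis were lower or alike in Ly6C high macrophages. Of 22 compared, 7 were lower and none was higher, with a median of -0.58. Bcl2l1 (11.42 and 9.60), which encodes Bcl-xL, and Mcl1 (15.91 and 14.51) protect from cell death. Bcl2l11 (13.50 and 11.94), which encodes Bim, and Pmaip1 (11.51 and 10.08), which encodes Noxa, promote it. These protective and killing members thus differed in the same direction. Cflar was at 13.17 and 13.21.

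Of 22 genes of the NADPH oxidase and of oxidant defence, 18 differed by less than 2-fold. In Ly6C high macrophages 1 was higher (4.55%) and 3 were lower (13.6%), against 10.4% and 17.0% of all genes compared. Cybb, the catalytic subunit of the oxidase, was at 12.78 in neutrophils and 12.46 in Ly6C high macrophages. Ncf1, a cytosolic subunit, was lower, at 13.72 and 11.42, and Nqo1, a quinone reductase, at 6.42 and 3.13. Matrix proteases and their inhibitors were more often higher in Ly6C high macrophages, with 10 of 22 higher and 6 lower. Timp1, an inhibitor of metalloproteases, was at 6.92 and 11.48, 23.7-fold higher. Mmp19 was at 10.70 and 14.32, and Serpinb2, an inhibitor of plasminogen activators, at 8.19 and 11.65. F13a1, the chain of coagulation factor XIII that cross-links fibrin, was at 11.23 and 14.18. Adam8, a membrane-bound metalloprotease, was at 13.66 and 14.08. Complement genes differed both ways, with 4 of 18 higher (22.2%) and 7 lower (38.9%), against 10.4% and 17.0% of all genes compared. Of the 18, 5 reached the minimum in 1 column alone, among them Cfb, C2 and C4b, which passed through Ly6C high macrophages. Cfp, properdin (11.69 and 13.36), and Cfb, factor B (4.69 and 7.12), of the alternative pathway were higher, as were C2 (3.68 and 5.49) and C4b (4.26 and 5.84) of the classical pathway, and Gpr77 (now C5ar2), a receptor for C5a, was lower, at 8.24 and 6.41.

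Genes used as marks of alternative polarization were higher in Ly6C high macrophages in 16 of 21, with 1 lower and a median of 2.02. They share Arg1, Chi3l3, Ccl24, Ccl8 and Ccl7 with lists above. Cd209a, which macrophages share with dendritic cells, also belongs to both. Clec7a, dectin-1, was at 12.98 and 12.72. Growth and repair factors were divided, with 7 of 19 higher and 5 lower. Areg, amphiregulin, was at 7.35 and 10.91, and Ereg, epiregulin, at 7.51 and 9.55, both ligands of the epidermal growth factor receptor. Pdgfc was at 3.21 and 5.89. Igf1 was lower, by 4.91 on the log2 scale. In the later columns it was at 6.90 in Ly6C high and 9.26 in Ly6C low macrophages on day 2, so the value of 9.95 in neutrophils was close to that of older macrophages. Grn, progranulin, was at 13.67 and 13.77.

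Among lysosomal genes, 20 of 26 differed by less than 2-fold, 4 were higher in Ly6C high macrophages (15.4%) and 2 lower (7.69%). The shares over all genes compared were 10.4% and 17.0%. The 4 higher genes were the proteases Ctsh (9.64 and 11.57), Ctsc (12.63 and 14.52), Lgmn (13.07 and 14.71) and Ctsl (12.94 and 14.11). Lipa, lysosomal acid lipase, was lower, at 12.57 and 10.75. Ctsb (16.39 and 16.63) and Ctsd (15.88 and 15.59) were at like levels. Iron genes held some of the widest gaps in metabolism. Slc40a1, ferroportin, the only known iron exporter of cells, was at 10.48 in neutrophils and 5.43 in Ly6C high macrophages, and Steap4, a metalloreductase, at 10.91 and 6.15. Ftl1, ferritin light chain, was higher, at 13.08 and 15.26, while Fth1, ferritin heavy chain, had a difference of -1.01, or -0.84 under quantile normalization. The chains of ferritin differed in opposite directions. Both have many processed pseudogenes, and the counting may have split their reads.

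Metabolic genes showed smaller gaps. Of 28 subunits of the respiratory chain, 7 were higher in Ly6C high macrophages and none lower, with a median of 0.63. Cycs, cytochrome c, was at 7.46 and 8.88, and Sdha, of succinate dehydrogenase, at 10.75 and 10.80. Of 25 genes of glycolysis and the hypoxia response, 4 were higher and 4 lower. Each share was 16%, against 10.4% higher and 17.0% lower over all genes compared. Slc2a3, a glucose transporter, was lower, at 9.85 and 5.94, as was Egln3, an oxygen sensor, at 8.27 and 5.78. Pgam1 (8.76 and 10.88) and Pgk1 (9.20 and 11.23) were higher, and Pkm was at 14.12 and 14.28. Of 21 cholesterol genes, 7 were lower and 1 was higher, with Abcg1, an exporter, at 10.63 and 8.05. In arginine and polyamine metabolism, 5 of 14 were higher and none was lower. Odc1, which starts polyamine synthesis, was at 8.18 and 10.36, and Smox, spermine oxidase, at 11.05 and 12.49. Of 18 eicosanoid genes, 13 lay less than 2-fold apart, 2 were higher (11.1%) and 3 lower (16.7%). These shares were near the 10.4% and 17.0% of all genes compared. Alox5, which starts leukotriene synthesis, was lower in Ly6C high macrophages, at 10.22 and 6.61, and Ptgs1 (9.79 and 6.66) was too. Ptgs2 was at 14.76 and 14.58. Alox5 and Ltb4r1, the enzyme and a receptor of leukotriene B4, thus differed in opposite directions.

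Heat shock genes were higher in Ly6C high macrophages. Of 16 compared, 11 were higher and 1 was lower, with a median of 1.29. Hspa1a (10.48 and 14.29) and Hspa1b (10.01 and 14.40) encode the inducible Hsp70 and are near-identical neighbours on chromosome 17, so the reads of each cannot be told from the other with certainty. Hspa8, the constitutive form, was at 12.47 and 14.90, and Hsp90aa1 at 11.09 and 12.53. Hspa4l was lower, at 12.23 and 10.15. Hspa1b was at 11.69 and 11.44 in the macrophages of day 2 and at 13.81 and 13.13 in those of day 4. The level of these genes therefore differed among the macrophage columns too, and what part cell isolation has in it was not tested.

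**Figure D3:**
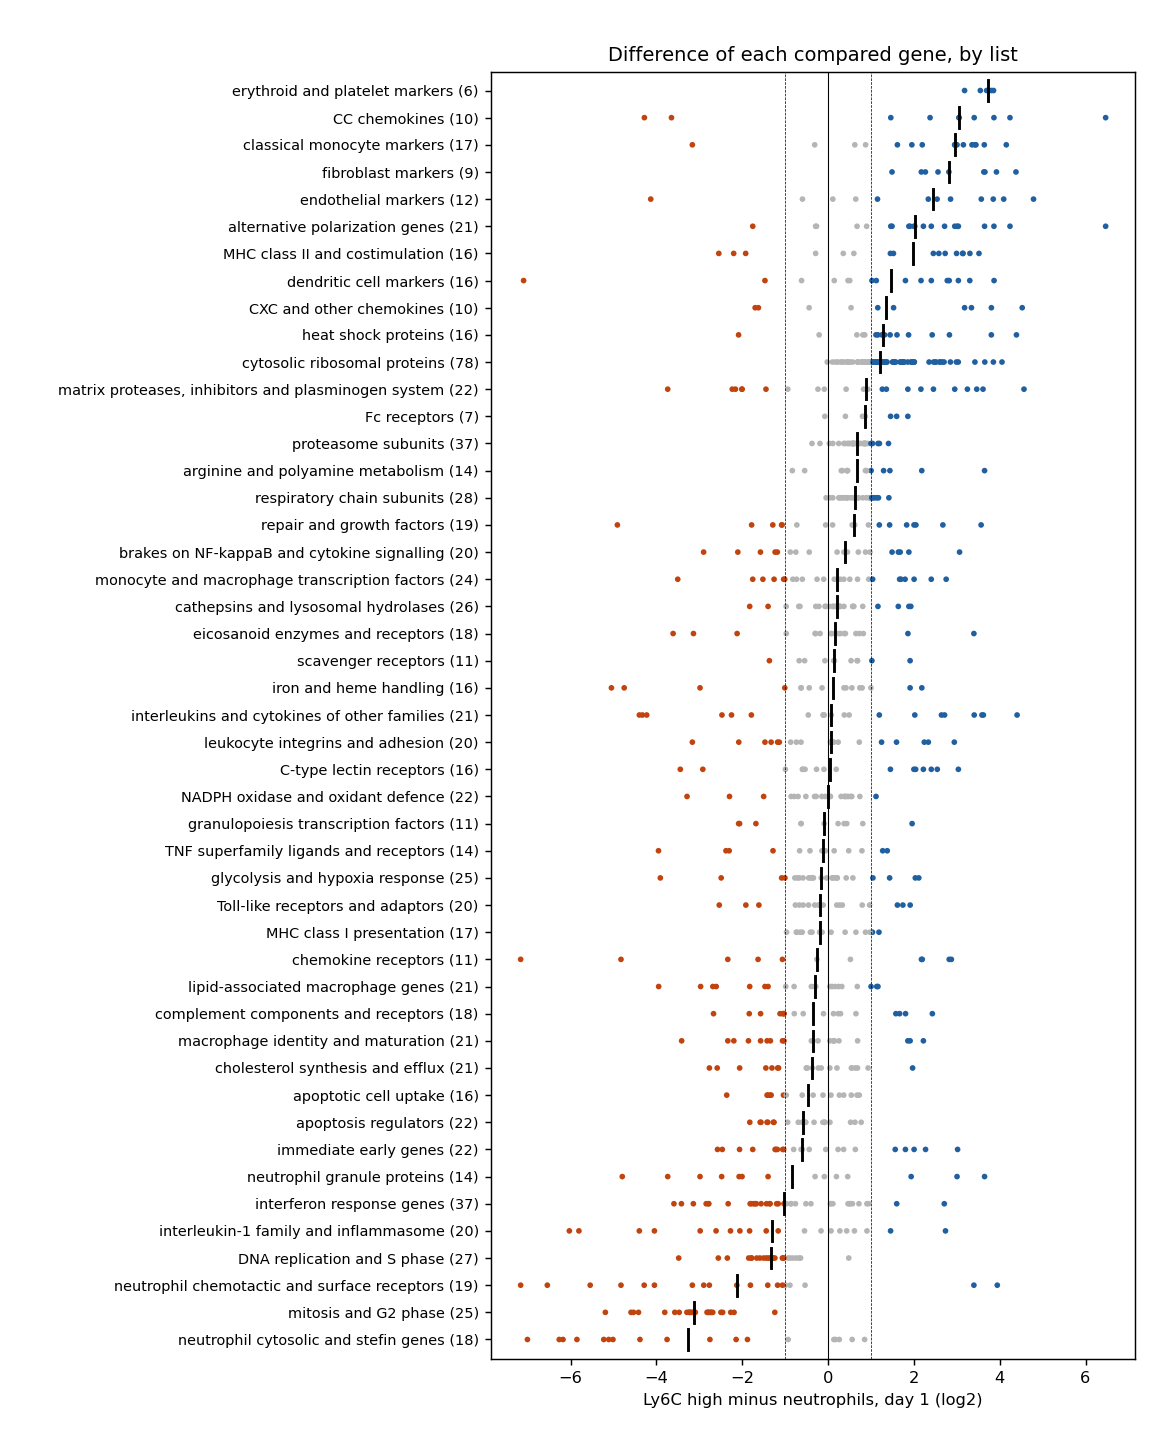
Difference of each compared gene (Ly6C high minus neutrophils on day 1, log2) in 47 gene lists of at least 6 compared genes, with the number compared in brackets and a black bar at the median. Blue points are at least 2-fold higher in Ly6C high macrophages, red at least 2-fold lower and grey neither, and dashed lines stand at 2-fold. The stefin and mitosis lists lie furthest to the left, and the red cell and platelet, CC chemokine and monocyte lists furthest to the right. The medians drawn are over compared genes, and over all listed genes they were 0.25 for the 13 red cell and platelet genes and 1.88 for the 16 CC chemokines.

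Markers of other cells were mostly low and differed between the columns. Of 18 fibroblast genes, 9 were compared and all 9 were higher in Ly6C high macrophages, and 8 of them reached the minimum in that column alone. Their summed level was 7.15 on the log2 scale in neutrophils and 10.3 in Ly6C high macrophages, and 16.4 in Ly6C high macrophages of day 4. Col3a1, a fibrillar collagen, was at 2.96 and 7.34, and Sparc at 5.31 and 8.96. Of 12 endothelial genes compared, 8 were higher and 1 was lower, but 8 of the 12 reached the minimum in 1 column alone. Over all genes compared, 10.4% were higher and 17.0% lower. The endothelial summed level was 10.1 in neutrophils and 10.6 in Ly6C high macrophages. Cdh5, VE-cadherin, was at 4.28 and 7.85, while Vwf, von Willebrand factor, went the other way, at 8.93 and 4.80. Only 2 of 19 muscle genes, 2 of 15 T and NK cell genes and 1 of 8 B cell genes reached the minimum. The 2 T and NK cell genes went opposite ways. Cd3d was at 5.84 in neutrophils and 0.56 in Ly6C high macrophages, and Il7r at 10.40 and 11.55. The summed level of that list was 10.5 and 11.6. Siglec5 in the file, which is Siglecf by its gene identifier, an antigen of eosinophils, was at 9.62 in neutrophils and 4.21 in Ly6C high macrophages. Of 13 mast cell, basophil and eosinophil genes, 2 were compared, and both reached the minimum in 1 column alone. They were Siglec5 and Ear2, which went the other way, at 3.05 and 6.28. Of the 13, 3 were listed at 0 in the neutrophil column and 4 in the Ly6C high column. The summed level was 9.75 and 7.23. The part of other cells in Cxcl12, Timp1 and the collagen genes was not tested.

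Ribosomal protein genes stood apart from most other lists. Of 78 compared, 54 were higher in Ly6C high macrophages and none was lower, a share of 69.2% against 10.4% of all genes compared, with a median of 1.22. Rps6 was at 6.95 in neutrophils and 11.01 in Ly6C high macrophages, and at 10.53 to 10.96 in the 4 later columns. Rpl26 was at 6.49 and 10.34, Rps29 at 4.82 and 8.47, and Rps23 at 6.43 and 9.85, while Rpl13a (10.46 and 10.78) and Rplp2 (9.61 and 9.84) were close. The gap in reads was thus unequal between genes for the proteins of 1 complex. What part reads shared with processed pseudogenes have in it was not tested. Of the 78, 38 (48.7%) were at least 2-fold lower in neutrophils than in every macrophage column, against 4.04% of all genes compared. Of 37 proteasome subunits, 5 were higher (13.5%, against 10.4% of all genes compared) and none was lower, with a median of 0.67.

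Gene class and transcript length moved with the difference. Among the 12 genes with the most positive differences, 6 were processed pseudogenes under clone names, 4 were protein-coding and 2 were not in GENCODE M21. The 4 were Ccl24, Ramp3 (3.56 in neutrophils and 8.96 in Ly6C high macrophages), a partner of the calcitonin-like receptor, Gprc5a (3.21 and 8.49), an orphan receptor, and Cryba4 (3.30 and 8.28), a crystallin. Of 74 processed pseudogenes that the rule on symbols did not leave out, 57 were higher in Ly6C high macrophages and 3 lower. Long intergenic RNAs went the other way, with 48 of 99 lower and 10 higher, as did antisense genes, with 37 of 81 lower and 2 higher. The sources used here do not say that the counting used strand, so antisense reads cannot be told apart from those of the opposite gene. Among 10076 protein-coding genes cut into 10 equal groups by their longest transcript, the median difference was 0.44 in the shortest group and -0.42 in the longest. The share higher in Ly6C high macrophages was 22.1% in the shortest and 4.57% in the longest, and the share lower was 7.83% and 24.6%. Across genes, which are not independent replicates, Pearson's r of the difference with log2 length was -0.20. With the median of its length group subtracted from each gene, 1004 genes were higher and 1708 lower, and the ribosomal median was 0.90. What part transcript length has in single differences was not tested.

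**Figure D4:**
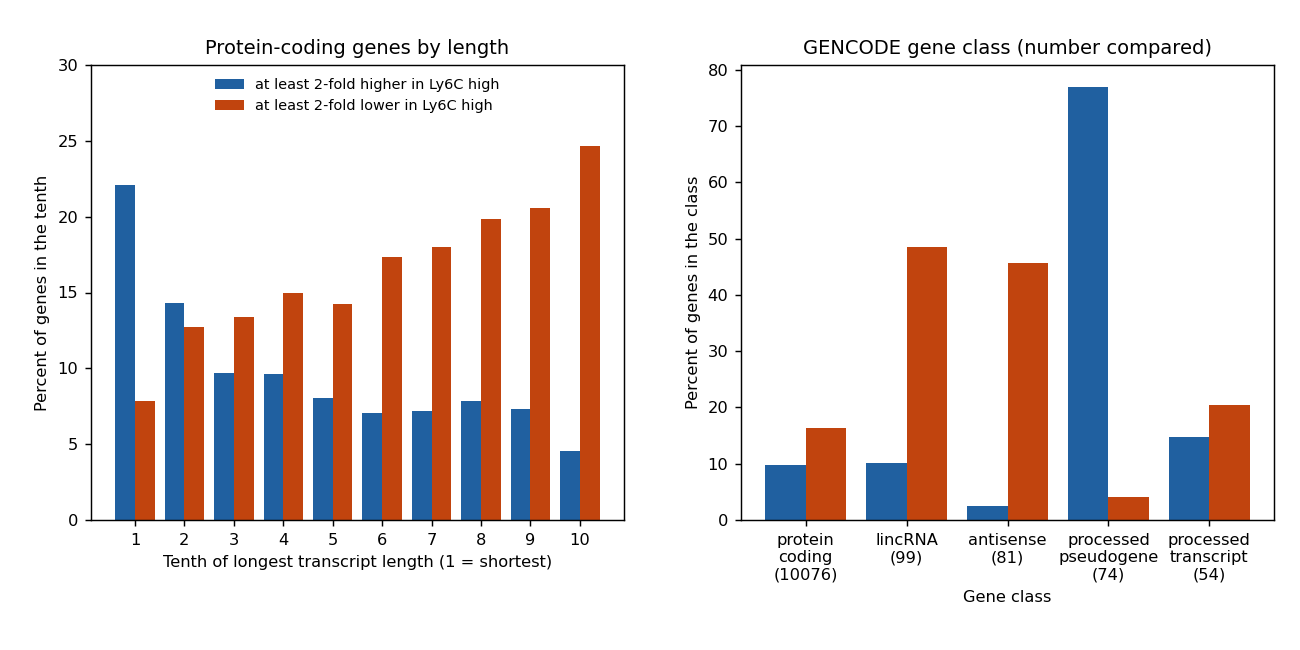
Percent of genes at least 2-fold higher (blue) and at least 2-fold lower (red) in Ly6C high macrophages of day 1, in 10 equal groups of 10076 protein-coding genes from the shortest to the longest transcript (left) and in 5 GENCODE gene classes with the number compared in brackets (right). The blue bars go from 22.1% to 4.57% and the red bars from 7.83% to 24.6% along the length groups, and processed pseudogenes stand out as higher.

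The low values also tell what a read was worth. In the neutrophil column they fell on steps of 1.03 and 0.961 normalised units per read, and in the Ly6C high column on steps of 0.602, 0.586 and 0.632. A log2 value of 5 thus stood for 31.2 and 33.3 reads in the neutrophil libraries and for 50.7 to 54.6 in the Ly6C high libraries. Counting error alone at that value was 17.3 to 17.9% and 13.5 to 14.1%, and it covers neither animals nor handling. These figures take each step as 1 independent read. On the first neutrophil ladder 93.6% of the steps from 2 to 10 reads were even numbers, against 60.7% on the second and 69.3 to 78.8% on those of Ly6C high macrophages. If both mates of a read pair were counted, 15.6 to 16.7 pairs would stand behind a value of 5 in neutrophils and 25.3 to 27.3 in Ly6C high macrophages. The counting error would then be up to 25.3% and up to 19.9%. Whether mates were counted is not given in the sources used here, and what the even steps do to the differences was not tested.

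The neutrophil column was then set against all 5 macrophage columns, so that genes low or high in the day 1 macrophages alone do not count. In it, 784 genes (7.44%) were at least 2-fold above the highest macrophage column and 425 (4.04%) at least 2-fold below the lowest. The 784 were 43.8% of the genes lower in Ly6C high macrophages of day 1, and the 425 were 38.7% of those higher. Among the neutrophil lists, 12 of 19 receptors, 12 of 18 cytosolic genes and 6 of 14 granule genes were above all 5. In the interleukin-1 list 10 of 20 were. Among class II and costimulation genes, 8 of 16 were below all 5, and among monocyte genes 5 of 17. Of the 1792 genes lower in Ly6C high macrophages of day 1, 181 were in neutrophils at or below the mean of the 4 later macrophage columns. Of the 1098 genes higher there, 35 were in neutrophils at or above that mean. The lists of cell cycle and interferon genes held no gene 2-fold above all 5.

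**Figure D5:**
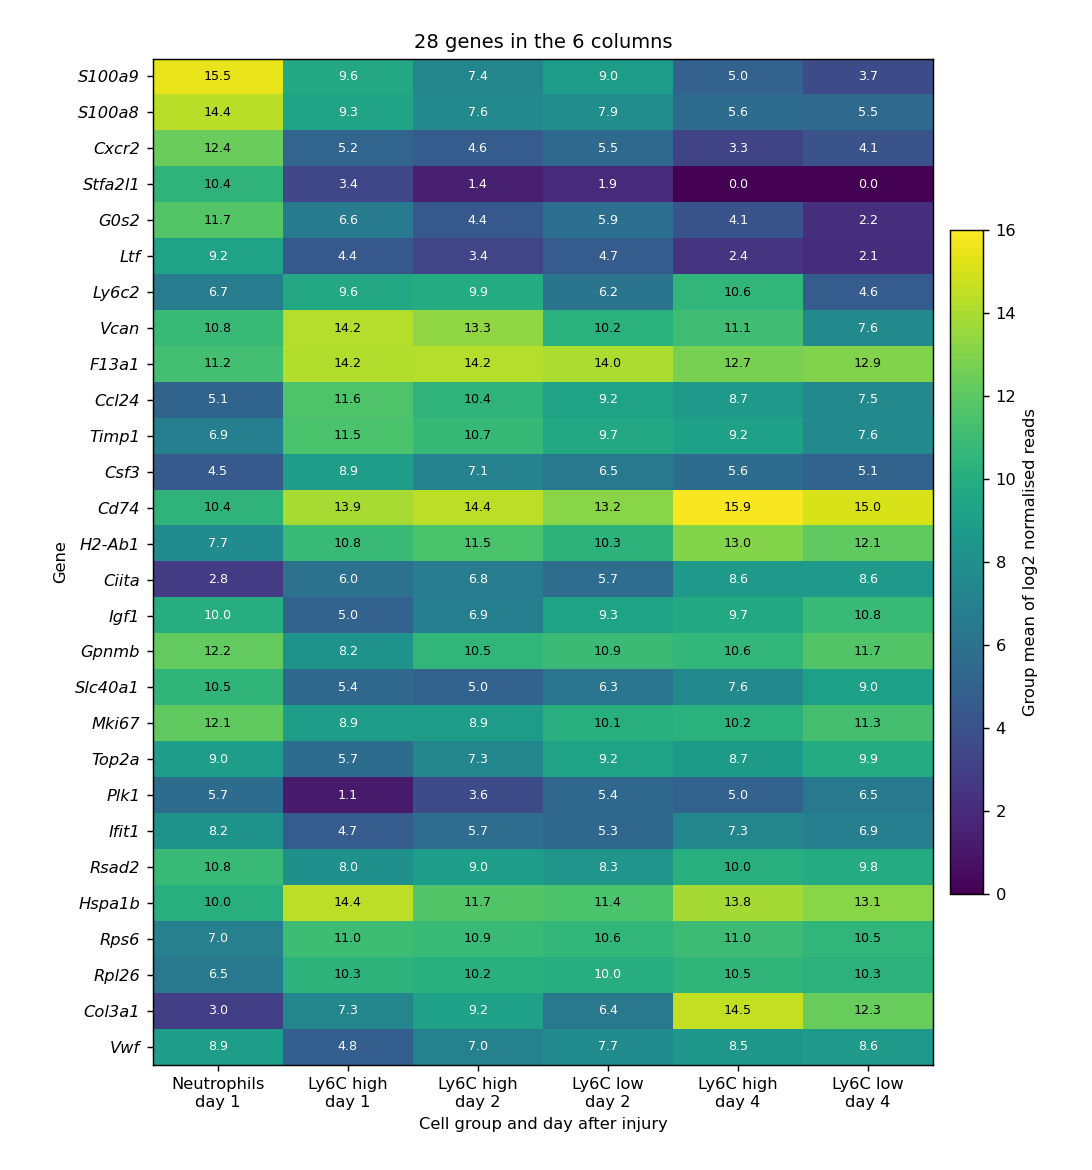
Group mean of log2 normalised reads of 28 genes (rows) in the neutrophils of day 1 and the 5 macrophage columns (columns), with the value printed in each cell. Cxcr2, S100a9 and Stfa2l1 are higher in neutrophils than in every macrophage column, though S100a9 is still at 9.64 in Ly6C high macrophages of day 1. Rps6 and Rpl26 are low in neutrophils alone, and the cell cycle genes Top2a and Plk1 are lowest in the Ly6C high macrophages of day 1. The genes drawn were chosen after their values were seen.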

How the data were processed

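RNA sequencing values were taken from 1 table of 38087 genes in which the authors deposited log2 normalised reads, with 1 column for each of 6 groups and none for single samples. Per the labels' protocols, poly-A RNA was made into TruSeq libraries and read on a HiSeq. TopHat2 2.0.7, Cufflinks 2.0.2 and the mm10 build are listed, without their roles, in the submitters' processing notes. For annotation and normalization the sources used here give nothing. The steps on which low values fall fit a mean over libraries of log2 values in which anything under 1 was set to 0, within a relative tolerance of 1e-05. Depth per sample cannot be had from these means.

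The difference was the day 1 Ly6C high column minus the day 1 neutrophil column. No pseudocount was added. Values are not per length, so levels were compared between columns and not between genes. A 2-fold threshold (1 on the log2 scale) marked genes as higher or lower. Differences from a column near 0 are understated by the floor. The counting step recovered set folds on simulated data. GENCODE M21 holds 36308 (95.3%) of the identifiers and gave classes, lengths and coordinates on GRCm38, the assembly of mm10. Promoters matched 7641 of the 10531 genes by symbol. Python with pandas, numpy and matplotlib was used.

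The genes compared, the gene lists and the rule for naming genes were chosen with earlier results of these data known. The rule took 11 sort and lineage genes, the 12 largest differences each way in genes whose higher value reached the median of that column, and the 8 furthest above or below all 5 macrophage columns. It also took, for each list, the 6 members furthest apart and 2 of the highest among those under 0.5 apart, or any member of a list of at most 16. Others are marked as chosen after their values were seen. A few results for single genes were left out of the text. Alternatives changed the minimum, pseudocount, scaling, gene classes, threshold and transcript length.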

Additional observations from a re-analysis of the deposited data

How the results depend on the processing

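The 2-fold counts in the report are 1098 genes higher and 1792 lower in Ly6C high macrophages. They were 1818 and 4162 with no minimum, and 405 and 701 at 4-fold, as fewer genes pass a stricter threshold. The genes lower were 1124 when both columns had to reach the minimum and 1120 at a minimum of 7, while 770 and 801 were higher. With symbols of the -ps and Gm kinds kept, 1974 were higher, and the share higher among genes past 2-fold was 50.8% in place of 38.0%. Pseudocounts of 1 and 16, rescaling, quantile normalization, protein-coding genes alone and the length and ribosomal settings, both added after the data were seen, kept both counts within 1.5 times. Rescaling to the median of genes at 7 or more in both columns shifted every difference by 0.10, and left all 51 list medians on their side of 2-fold. Against the mean of the later 4 macrophage columns, 12 of 51 list medians had the other sign. That of the CXC chemokines turned to -0.42, of mitosis genes to 0.075, of macrophage identity to 0.85, of lipid-associated genes to 0.84, of chemokine receptors to 0.63 and of apoptotic cell uptake and complement each to 0.40. The other 5, of which MHC class I was one, lay less than 1 from 0 on both sides. The T and NK cell median, over 2 genes, turned to 0.84 with no minimum or with all listed genes and to 1.15 at both stricter minimums. No named gene changed direction under the pseudocount, scaling and length settings. No paired analysis was possible because the columns are group means and no sample can be left out. Depth limits genes near a value of 5, where 31.2 to 54.6 reads, or 15.6 to 27.3 pairs if mates were counted, stood behind a library's value.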

Other observations

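Receptors by which myeloid cells sense microbes, damage and antibodies were compared as well. Of 20 genes of Toll-like receptors and their adaptors, 3 were higher in Ly6C high macrophages, 3 lower and 14 neither, with a median of -0.19. Each share was 15%, against 10.4% higher and 17.0% lower over all genes compared. Tlr5, the receptor for flagellin, was at 6.83 in neutrophils and 8.74 in Ly6C high macrophages, and the adaptor Ticam1 was at 8.27 and 10.01. Tlr4, which senses endotoxin, was lower, at 11.63 and 9.71, while Cd14, which hands endotoxin to it, was higher, at 14.95 and 16.56. Tlr2 was at 13.60 and 13.86. The receptor and its co-receptor thus differed in opposite directions. Of 16 C-type lectin receptors, 7 were higher and 2 lower. Clec4a1 (7.97 and 10.52) and Clec4a3 (7.94 and 9.98) were higher in Ly6C high macrophages, and Clec5a was lower, at 13.13 and 10.21. Clec4d (14.00 and 13.46) and Clec7a (12.98 and 12.72), which bind fungal walls, lay less than 2-fold apart. Of 7 receptors for the Fc part of antibodies, 3 were higher and none was lower. Fcgr2b, the inhibitory receptor, was at 10.50 and 11.96, and Fcer1g, the signalling chain that several of them share, at 12.39 and 12.31.

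Adhesion genes differed in both directions, with 5 of 20 higher in Ly6C high macrophages and 6 lower. Itgam, the alpha chain of the integrin CD11b that both cell types carry, was at 14.67 in neutrophils and 14.80 in Ly6C high macrophages. Vcam1 was at 6.45 and 9.39 and Itgb7 at 8.99 and 11.23. Icam1, a ligand of CD11b, was lower, at 13.95 and 11.87. Pecam1, which endothelial cells also carry, was at 6.41 and 8.75, beside an endothelial summed level of 10.1 and 10.6 on the log2 scale. Of 11 scavenger receptors, 2 were higher and 1 was lower, with Msr1 at 12.92 and 13.94, and Olr1, a receptor for oxidised lipoprotein, lower at 12.68 and 11.31.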
